A study of Auxenochlorella pyrenoidosa with 12 samples.

Results

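The features described here are 134 of the 16413 assembled transcript features of the unicellular green alga Auxenochlorella pyrenoidosa, strain SHOU-1002, and they were found almost exclusively in cultures given no nitrate. Members were chosen by their measured N0 level: the mean in the group without nitrate (N0) had to be at least 1 CPM, the count scaled to a common library total, and at least 90% of the sum of the means of all 4 groups. Algal cells were grown with 0 (N0), 0.5 (N0.5), 1 (N1) or 1.5 (N1.5) g/L NaNO3, the last being the control, and poly(A)-selected RNA of 3 libraries per group was sequenced. Library totals were between 22027761 and 24383226 estimated counts. The sources used here state neither culture age, harvest time nor batch, so these cannot be told apart from the nitrate level, and the submitters describe the 3 libraries as biological repetitions. In such bulk samples, fewer cells with a transcript and less of it per cell cannot be told apart.

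Green algae take up nitrate through transporters and reduce it to ammonium with nitrate and nitrite reductases before it enters amino acids. When nitrogen runs out, cells of the well-studied alga Chlamydomonas slow their division, break down nitrogen-rich components, store starch and triacylglycerol, and induce transcripts for scavenging other nitrogen sources that are scarce in replete cells. The files do not pair the features with gene names, functions or sequences, so no role is given to any member, and members are called below by their rank of mean CPM in N0. That rank is an order of read share, not of transcript level, because CPM does not correct for length.

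The same rule applied to the other groups found 19 features nearly restricted to N0.5 and 0 each for N1 and N1.5. The 19 features had means of 1.11 to 59.5 CPM in N0.5, with a median of 6.27 CPM. The 134 members had means of 1.00 to 4030 CPM in N0, with a median of 19.2 CPM. Of the features with an N0 mean of 1 CPM or more, 300 had an N0 share of 50 to under 70%, 102 of 70 to under 80%, 121 of 80 to under 90%, 62 of 90 to under 95%, 69 of 95 to under 99%, and 3 of 99% or more. No gap therefore separated the members from the features below the 90% edge. The member just inside that edge had a share of 90.08%, with means of 4.32 CPM in N0, 0.29 in N0.5, 0.11 in N1 and 0.071 in N1.5. The feature just outside it had 89.83%, with 328.9 CPM in N0, 8.02 in N0.5, 16.2 in N1 and 13.1 in N1.5. At the 1 CPM edge the nearest values were 1.002 CPM inside and 0.94 CPM outside.

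**Figure D1:**
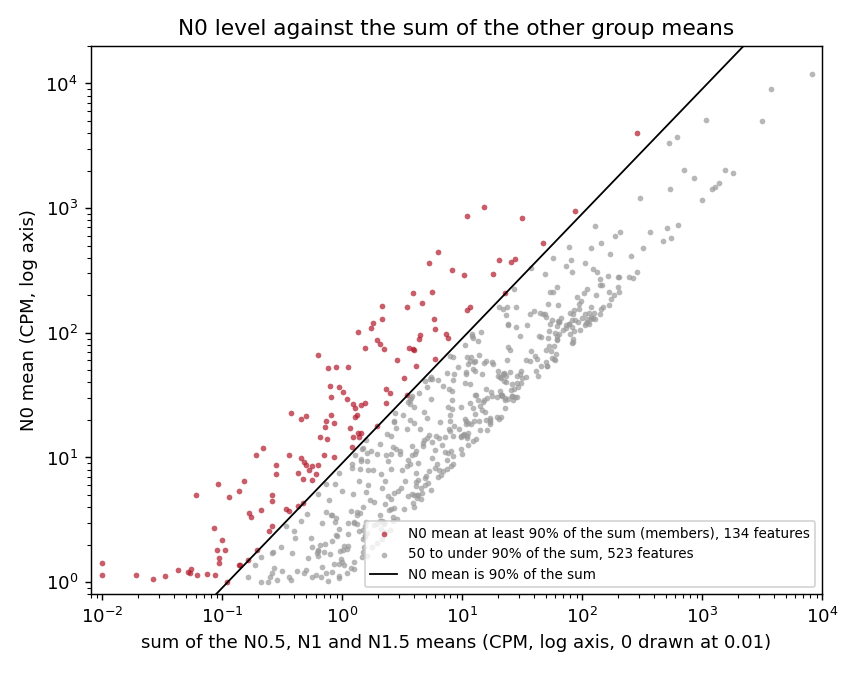
Mean CPM in N0 (vertical, log axis) against the sum of the means in N0.5, N1 and N1.5 (horizontal, log axis, with 0 drawn at 0.01) for features with an N0 mean of at least 1 CPM and an N0 share of at least 50%. The 134 members (red) lie above the line at which N0 makes up 90% of the sum, and 523 features (grey) continue the cloud below it.

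Members together took 1.58, 1.54 and 1.54% of all counts in N0 replicates 1, 2 and 3. Their sum was 15530 ± 192 CPM in N0, 212 ± 71.4 in N0.5, 229 ± 63.6 in N1 and 359 ± 170 in N1.5 (SD, n = 3 each). These sums follow from the choice of members and are given as a description. The 10 members with the largest read share held 63.0% of the N0 sum, and the first alone held 25.9%. By N0 mean, 2 members stood at 1000 CPM or more, 26 at 100 to under 1000, 55 at 10 to under 100 and 51 at 1 to under 10 CPM. They made up 1.55, 1.45, 0.738 and 1.51% of all features in these classes, so members occurred at every abundance. For every member the lowest N0 library lay above the highest of the other 9 libraries, by 3.49-fold at the least and by a median of 20.7-fold, and for 111 members this was 10-fold or more. Such separation also follows in large part from the rule. It is a description, and no share over all features is given for it.

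**Figure D2:**
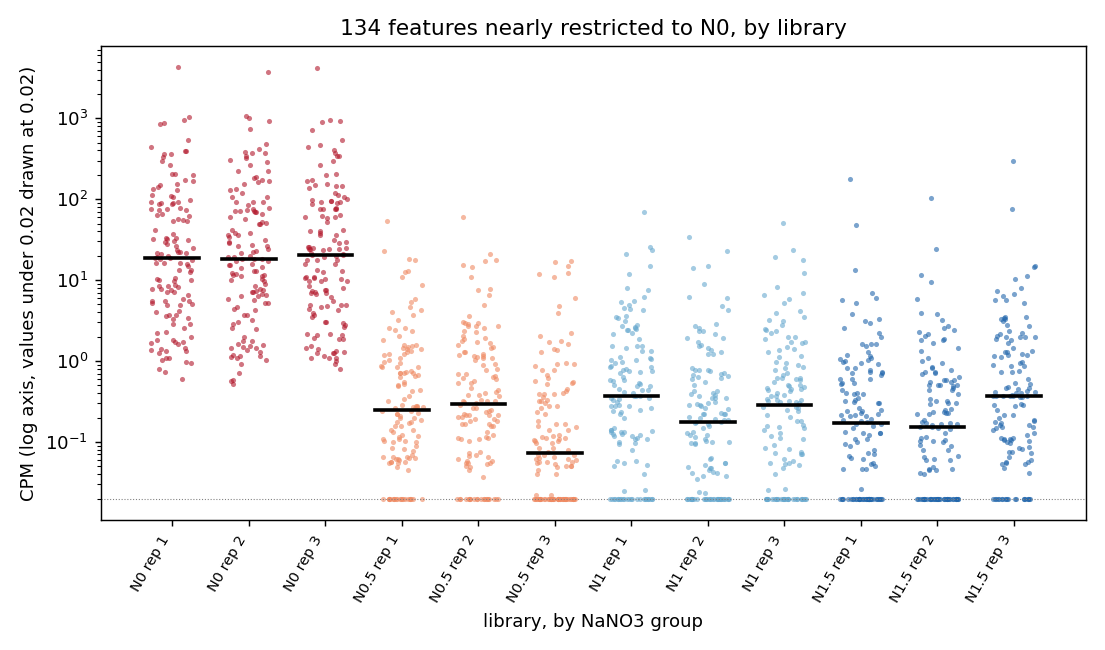
CPM of the 134 members in each of the 12 libraries (log axis, values under 0.02 drawn at 0.02), with the library's median as a black bar and colours by NaNO3 group. The members spread from under 1 to 4238 CPM in the 3 N0 libraries and mostly lie under 1 CPM in the other 9 libraries, where 17 to 41 members per library had a count of 0.

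The most abundant member by either measure was TRINITY_DN6986_c0_g1_i11_2, whose length implied by its count and FPKM was 2489 bases. It had 4238, 3724 and 4128 CPM in N0, against 53.3, 59.99 and 16.7 in N0.5, 70.2, 34.2 and 50.8 in N1, and 176, 104 and 293 in N1.5. In N0 it was the feature with the 9th largest read share of all, and it was also the member with the highest residual in the control. Per length it reached 1617 ± 109 FPKM in N0 (SD, n = 3). The fitted log2 difference between N0 and N1.5, not tested because the rule used the N0 values, was 4.57.

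TRINITY_DN7421_c1_g3_i2_1, of 760 bases, ranked second. It had 1047, 1075 and 927 CPM in N0, against 10.91, 11.002 and 0.24 in N0.5, 7.58, 0.78 and 3.10 in N1, and 0.60, 0.95 and 10.3 in N1.5. Its residual was thus uneven within groups, high in N0.5 replicates 1 and 2, N1 replicate 1 and N1.5 replicate 3, and near 0 in N0.5 replicate 3. Per length it was close to the first member, at 1335 ± 102 FPKM in N0. Its fitted log2 difference between N0 and N1.5, again a description, was 8.19, and 10.51 without N1.5 replicate 3. The member ranked 4, of 931 bases, showed the same unevenness, with 858, 1004 and 719 CPM in N0, 8.62, 7.53 and 0.050 in N0.5, 5.36, 0.55 and 1.65 in N1, and 0.68, 0.51 and 7.95 in N1.5. Only the first and second members exceeded it per length, as it reached 922 ± 152 FPKM in N0. The members ranked 3 and 5 followed per length, at 365 ± 4.99 and 329 ± 34.1 FPKM.

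At the other end, 2 members had a count of 0 in all 9 libraries with nitrate, the members ranked 120 and 130. The first had 1.35, 1.60 and 1.33 CPM in N0 and the second 1.34, 0.51 and 1.55. With 3 counts over the 3 control libraries as the floor, N0 was at least 32.7-fold higher than N1.5 for the first and at least 26.0-fold higher for the second. In all, 22 members had at least 1 group with counts of 0 in every library. Their N0 means did not exceed 4.80 CPM. With the same floor for each such group, N0 was at least 22.6- to 112-fold higher, and a residual smaller than this bound could not be seen.

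Members were otherwise spread widely in how far they stood above each group. Where the group mean was above 0, the ratio of the N0 mean to the N0.5 mean had a median of 82.9 (126 members), to the N1 mean of 59.1 (120 members) and to the N1.5 mean of 82.0 (123 members). The ratio was 100 or more for 51 members against N0.5, 39 against N1 and 49 against N1.5. All of these ratios share the N0 libraries. The group with the next highest mean after N0 was N0.5 for 50 members, N1 for 54 and N1.5 for 28, and the members ranked 120 and 130 have none. N0.5, the group with the least nitrate after N0, was thus next highest for about as many members as N1. These means were not tested, and 44 to 82 members per library with nitrate had under 3 counts. No order by nitrate level is read from them.

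Medians of length and of variation between the N0 libraries are given here as a description, with no test of a difference. The implied length had a median of 1259 bases for members, 1584 for all features at 1 CPM or more in N0 and 1317 for all features. Members at 1 to under 10 CPM in N0 had a median of 652 bases against 1259 for all features of that class, those at 10 to under 100 CPM had 1775 against 1649, and those at 100 to under 1000 CPM had 2119 against 2129. Between the N0 libraries, the coefficient of variation of CPM had a median of 10.7% for members and 8.18% for all features at 1 CPM or more in N0. By class the medians were 7.76% for members against 4.93% for all features at 100 to under 1000 CPM, 8.90 against 7.20% at 10 to under 100 CPM, and 19.1 against 18.5% at 1 to under 10 CPM. The shares given next are not matched for level, as 51 of 134 members but 3386 of 12755 features stood at 1 to under 10 CPM. A coefficient over 30% was found in 18 members, or 13.4%, against 7.34% of all features at 1 CPM or more in N0. Among them, the member ranked 48 had 30.2, 52.8 and 28.4 CPM in N0 replicates 1, 2 and 3, and the member ranked 57 had 21.8, 38.7 and 21.0. Both were highest in replicate 2. In all, 3 members were at least 1.5-fold higher in replicate 1 than in both other N0 libraries, 4 in replicate 2 and 2 in replicate 3. These are 2.24, 2.99 and 1.49% of the members, against 0.53, 3.21 and 0.64% of all features at 1 CPM or more in N0.

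The residual of the members outside N0 depended on the library as well as the group. It was followed in the 28 members with an N0 mean of at least 100 CPM, for which the residual is best resolved. The mark of 0.2% used next was chosen after the values were seen. Each of the 28 stood at 0.2% or more of its N0 mean in N0.5 replicates 1 and 2, N1 replicate 1 and N1.5 replicate 3. In the other libraries this held for 15 members in N0.5 replicate 3, 18 in N1 replicate 2, 23 in N1 replicate 3, 23 in N1.5 replicate 1 and 22 in N1.5 replicate 2. The lowest of the 28 values was 0.44 and 0.31% in N0.5 replicates 1 and 2, 0.25% in N1 replicate 1 and 0.52% in N1.5 replicate 3, whereas in the other 5 libraries it was between 0 and 0.059%.

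Over all 134 members, Spearman's rho between the CPM of a library and the N0 mean was 0.88, 0.91 and 0.59 in N0.5 replicates 1, 2 and 3, 0.87, 0.66 and 0.69 in the N1 replicates, and 0.81, 0.81 and 0.91 in the N1.5 replicates. These are correlations across features of 1 library, given as a description. The libraries with the broad residual thus also ordered the members most like N0. Log2 fold changes in the groups with nitrate are given below with and without these 4 libraries, a set listed among the alternatives with earlier results of these data known. The set was marked by the residual of these same members. Without it N0.5 keeps only replicate 3, where the sum of members was 130 CPM, against 244 and 261 in replicates 1 and 2. Shifts of the fold changes without the 4 libraries thus follow in part from that choice. Whether reads carried over from N0 libraries contributed to the residual was not tested, and if they did, a residual level would not be expression.

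**Figure D3:**
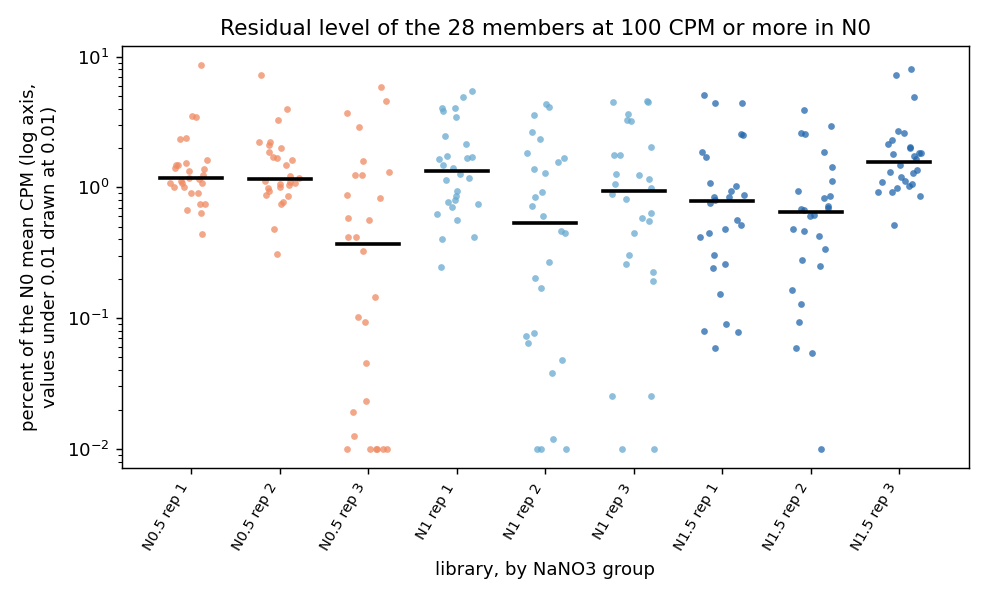
CPM as a percent of the N0 mean (log axis, values under 0.01 drawn at 0.01) for the 28 members at 100 CPM or more in N0, in the 9 libraries with nitrate, with medians as black bars. In N0.5 replicates 1 and 2, N1 replicate 1 and N1.5 replicate 3 all points lie above 0.2%, while in the other 5 libraries the points reach down to under 0.1%.

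The rule bounded the levels in N0.5, N1 and N1.5 but did not use the differences among these groups, which were tested with edgeR's quasi-likelihood test over all 15429 tested features. All 134 members passed the filter on low counts, but 73 of them only through their N0 libraries. In 53 members at least 1 of the 3 comparisons among the groups with nitrate passed an adjusted p of 0.05, against 69.7% of all tested features, and in 81 none did. The 53 had a median of 107 counts summed over the 9 libraries with nitrate, against 33.0 counts for the 81, so the members with no call also had fewer counts behind them. Reads shared between near-identical features can also have been divided by the counting, which makes single residual levels uncertain.

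Set against the control, 16 members rose in N0.5 and 15 fell, together 23.1% of the members, where 61.9% of all tested features were called, 30.6% rising and 31.3% falling. Between N0.5 and N1, 12 were higher in N0.5 and 19 lower, also 23.1%, where 60.4% of all tested features were called, 29.1% higher and 31.3% lower. Between N1 and N1.5, 19 were higher in N1 and 9 lower, together 20.9%, where 7.58% of all tested features were called, 3.97% higher and 3.6% lower. Calls depend on level, and 100 of the members had a mean under 1 CPM over the 9 libraries with nitrate. At that level 17 members were called in N0.5 against the control, where 26.9% of features were, 22 in N0.5 against N1 (25.6% of features) and 11 in N1 against the control (2.74% of features). Among the 30 members at 1 to under 10 CPM, 11 were called in N0.5 against the control (50.8% of features), 9 in N0.5 against N1 (48.3%) and 14 in N1 against the control (8.9%). Whether members and other features differ in these shares was not tested.

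With N0 left out of both the filter and the fit, a choice made after the data were seen, 61 members could be tested. Of these, 16 were called in N0.5 against the control, where 63.9% of 15026 features were, 16 in N0.5 against N1 (62.3% of features) and 12 in N1 against the control (7.45% of features). All of these calls were among the calls above and in the same direction. Of the calls in the fit with N0, 7 in N0.5 against the control, 13 in N0.5 against N1 and 5 in N1 against the control were of members that could not be tested without N0. Every member whose course is described by its values below could be.

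With the 4 libraries of broad residual left out, which leaves N0.5 with 1 library assumed to vary like the others, 14 members rose and 22 fell in N0.5 against the control, where 20.4% of features rose and 24% fell. In the same fit 7 rose and 28 fell in N0.5 against N1 (18.6 and 23.8% of features), and 16 rose and 8 fell in N1 against the control (2.08 and 1.39% of features). The same member was again called in the same direction for 23 of 31, 20 of 31 and 20 of 28 calls of these comparisons. In N1 against N1.5 the calls were 10 higher and 8 lower without N1 replicate 1, 20 and 5 without N1 replicate 2, 10 and 5 without N1 replicate 3, 11 and 7 without N1.5 replicate 1, and 10 and 9 without N1.5 replicate 2, in total 18, 25, 15, 18 and 19. Of all features 4.55, 8.34, 3.86, 4.07 and 4.35% were called in these fits, so calls over all features moved with these libraries as well. The balance of N0.5 against N1.5 also moved with 1 library, to 31 rises and 12 falls without N1.5 replicate 3 and to 20 and 10 without N0.5 replicate 3. These fits called 56.8 and 56.9% of all features. In N0.5 against N1 there were 5 rises and 28 falls without N1 replicate 2, 6 and 20 without N0.5 replicate 2, and 15 and 16 without N0.5 replicate 3. Here 57.5, 54.9 and 55.9% of all features were called.

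The residual levels followed several courses, each defined here by 2 calls, so that a member can show more than 1 of them. The counts per course come from the fit with N0, and include members that passed the filter only through N0. Shares of members per course are thus a description, and whether they differ from those of all features was not tested. Members that kept both calls with N0 left out are named for each course, with no share of all features for that fit. A level in N1 above both N0.5 and N1.5 was found in 10 members, or 7.46%, where 1.66% of all tested features showed it. Both calls held with N0 left out for the members ranked 8, 9, 38 and 52. Those ranked 57 and 70 could not be tested, and the others lost a call. The member ranked 8 had 5.79, 7.78 and 4.82 CPM in N0.5, 21.2, 13.9 and 17.5 in N1, and 3.30, 1.65 and 6.82 in N1.5. All N1 libraries lay above all others, and N0.5 and N1.5 overlapped. Its log2 fold change was 2.20 in N1 against N1.5 (SE 0.33, edgeR adjusted p = 0.00101) and -1.44 in N0.5 against N1 (SE 0.31, edgeR adjusted p = 0.001001), or 2.70 and -1.64 without the 4 libraries of broad residual. With N0 left out the edgeR adjusted p were higher, at 0.00707 and 0.00458. The member ranked 52 had 0.062, 0.37 and 0.062 CPM in N0.5, 2.72, 1.72 and 1.99 in N1, and 0.061, 0.12 and 0.37 in N1.5. Its N1 libraries stood clear of both other groups, which overlapped. Except in N0.5 replicate 2 and N1.5 replicate 3, those groups lay under the roughly 0.13 CPM that 3 counts make up. The size of its fold changes is thus poorly resolved. The log2 fold change was 3.60 in N1 against N1.5 (SE 0.49, edgeR adjusted p = 0.000511) and -3.74 in N0.5 against N1 (SE 0.51, edgeR adjusted p = 2.33e-05), or 4.38 and -5.16 without the 4 libraries. Fitted without N0, the edgeR adjusted p were 0.0138 and 0.00098. The members ranked 38 and 39 took the same course, with log2 fold changes of 1.80 and 2.15 in N1 against N1.5, or 2.398 and 3.31 without the 4 libraries. For the member ranked 39 the value was 3.30 without N1.5 replicate 3, and this call was lost with N0 left out (edgeR adjusted p = 0.0615).

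Residual levels highest in the control, with falls in both N0.5 and N1, were found in 6 members, or 4.48%, where 1.54% of all tested features showed them. Both calls held with N0 left out for the members ranked 1, 3, 13 and 37, while those ranked 12 and 32 lost at least 1 call. The member ranked 1, whose values are given above, had N1.5 libraries above all N0.5 and N1 libraries. Its log2 fold change was -2.06 in N0.5 against N1.5 (SE 0.44, edgeR adjusted p = 0.00101) and -1.87 in N1 against N1.5 (SE 0.43, edgeR adjusted p = 0.0180), or -2.99 and -1.70 without the 4 libraries. Fitted without N0, the edgeR adjusted p were 0.00211 and 0.0342. The N1 call was lost without N1 replicate 2, N1 replicate 3 or N1.5 replicate 3, with edgeR adjusted p of 0.0538, 0.0744 and 0.0648. For the member ranked 3 the log2 fold changes were -1.34 in N0.5 and -1.36 in N1, or -0.87 and -0.88 without N1.5 replicate 3, and its N1 call was lost in 5 of 20 alternatives, namely leaving out N1 replicate 2, N1 replicate 3, N1.5 replicate 1, N1.5 replicate 3 or the 4 libraries of broad residual. The member ranked 13 had 3.20, 2.95 and 0.28 CPM in N0.5, 4.44, 1.37 and 2.42 in N1, and 13.2, 11.6 and 14.7 in N1.5. The control lay well above both other groups, and its log2 fold changes were -2.52 in N0.5 (SE 0.41, edgeR adjusted p = 0.000105) and -2.24 in N1 (SE 0.39, edgeR adjusted p = 0.00297). Without the 4 libraries of broad residual they were -5.42 and -2.69. Fitted without N0, the edgeR adjusted p were 0.00216 and 0.0357. The member ranked 32 moved likewise, by -2.21 and -2.23, or by -5.78 and -2.53 without the 4 libraries, and its N1 call was lost with N0 left out (edgeR adjusted p = 0.0618). In the member ranked 37, of 708 bases, N1 was lowest, with 0.55, 0.60 and 0 CPM in N0.5, 0.14, 0 and 0 in N1, and 0.95, 3.22 and 1.30 in N1.5. Its log2 fold changes were -2.16 in N0.5, a call lost with DESeq2 (adjusted p = 0.0553), and -5.24 in N1. Without N1 replicate 1 the fitted N1 value was -8.36, and without the 4 libraries both values were -8.55, but these groups then have no count and the values depend on the prior count of the fit.

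The reverse, a higher level in both N0.5 and N1 than in the control, was found in 5 members, or 3.73%, where 2.42% of all tested features showed it. Both calls held with N0 left out for the members ranked 6, 20 and 31, while those ranked 29 and 43 lost at least 1 call. The member ranked 6 had 18.0, 17.2 and 15.05 CPM in N0.5, 25.7, 22.8 and 23.5 in N1, and 5.61, 3.76 and 11.2 in N1.5. Neither group overlapped with the control, and its log2 fold changes were 1.38 in N0.5 (SE 0.27, edgeR adjusted p = 0.000466) and 1.83 in N1 (SE 0.26, edgeR adjusted p = 0.000705), or 1.77 and 2.33 without the 4 libraries. With N0 left out the edgeR adjusted p were 0.00189 and 0.00314. The members ranked 20 and 31 rose by 1.18 and 1.46 in N0.5 and by 1.36 and 1.45 in N1 on the log2 scale. Without the 4 libraries these were 2.09 and 2.33 in N0.5 and 1.79 and 1.95 in N1.

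A level in N0.5 above both N1 and N1.5 was found in 7 members, or 5.22%, where 24.7% of all tested features showed it, and 3 of the 7 also fell in N1 against N1.5. Both calls of this course held with N0 left out for the members ranked 10 and 17. Those ranked 49, 88 and 103 could not be tested, and those ranked 50 and 58 lost a call. The member ranked 10 had 12.99, 14.7 and 17.1 CPM in N0.5, 7.90, 4.75 and 6.49 in N1, and 2.98, 2.53 and 7.39 in N1.5. The N0.5 libraries lay above all others, and N1 and N1.5 overlapped. Its log2 fold change was 1.89 in N0.5 against N1.5 (SE 0.29, edgeR adjusted p = 6.31e-05) and 1.29 in N0.5 against N1 (SE 0.27, edgeR adjusted p = 0.000927), or 2.71 and 1.66 without the 4 libraries. Fitted without N0, the edgeR adjusted p were 0.000777 and 0.00758. The member ranked 17 had 18.0, 15.2 and 12.3 CPM in N0.5, 3.47, 2.88 and 2.22 in N1, and 5.25, 3.89 and 5.66 in N1.5, with no overlap between any pair of groups. It rose by 1.71 on the log2 scale in N0.5 against N1.5 (SE 0.17, edgeR adjusted p = 9.73e-07, or 3.83e-05 with N0 left out). Without the 4 libraries it rose by 1.51. It was lower in N1 than in N1.5 by -0.77 (SE 0.21, edgeR adjusted p = 0.0425), a call that was lost in 8 of 20 alternatives, among them leaving out either of N1 replicates 2 and 3, N1.5 replicates 1 and 3, N0 replicates 1 and 3 or N0.5 replicate 2, with adjusted p up to 0.171 by edgeR, and also with N0 left out (edgeR adjusted p = 0.0666).

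A level in N0.5 below both N1 and N1.5 was found in 6 members, or 4.48%, where 27.8% of all tested features showed it. Both calls held with N0 left out for the members ranked 22, 72, 74 and 76. The member ranked 69 lost its calls, and the one ranked 107 could not be tested. In the member ranked 22, of 5285 bases, which is also among those highest in N1, the 3 groups with nitrate differed throughout, with 1.51, 1.59 and 0.86 CPM in N0.5, 6.15, 6.18 and 6.88 in N1, and 3.86, 2.17 and 3.50 in N1.5. It fell by 1.17 on the log2 scale in N0.5 against N1.5 (SE 0.25, edgeR adjusted p = 0.000898, or 0.00382 with N0 left out). It rose by 1.03 in N1 against N1.5 (SE 0.18, edgeR adjusted p = 0.00336). Without the 4 libraries it changed by -1.73 and 1.14. The second of these calls was lost in both fits of log2 FPKM values, with limma adjusted p of 0.0614 and 0.0586, and with N0 left out (edgeR adjusted p = 0.0503). The member ranked 76 nearly vanished in N0.5, with 0.056, 0 and 0.056 CPM in N0.5, 1.32, 0.63 and 0.50 in N1, and 0.40, 0.50 and 0.25 in N1.5. Its counts in N0.5 were at most 1.3 per library, under the 3 counts that a count of 0 allows, and its call against the control was lost in 1 of 20 alternatives. Its log2 fold change was -3.42 against N1.5 and -4.49 against N1, or -3.10 and -3.43 without the 4 libraries. The member ranked 72 had 0.10, 0.31 and 0.16 CPM in N0.5, 0.46, 0.62 and 0.77 in N1, and 0.81, 0.58 and 0.47 in N1.5, with N0.5 below both other groups and a log2 fold change of -1.70 against N1.5 (SE 0.41, edgeR adjusted p = 0.00241), or -2.27 without the 4 libraries. With N0 left out that edgeR adjusted p was 0.0174.

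**Figure D4:**
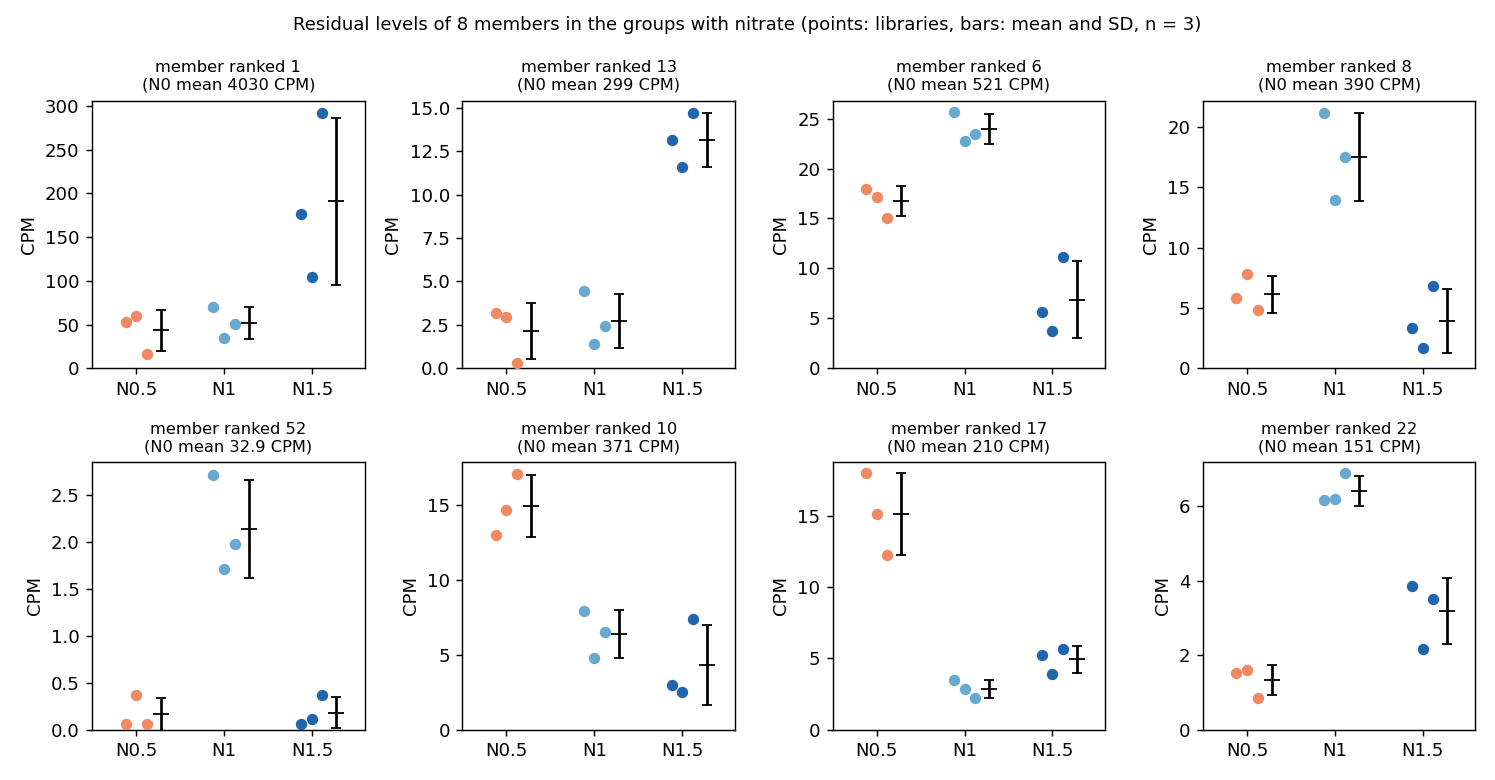
CPM of 8 members in the groups with nitrate only (points are libraries, black bars the mean and SD of 3). The panels show a residual highest in N1.5 (ranks 1 and 13), higher in N0.5 and N1 than in N1.5 (rank 6), highest in N1 (ranks 8 and 52), highest in N0.5 (ranks 10 and 17), and lowest in N0.5 and highest in N1 (rank 22). Each N0 mean, printed above its panel, lies far above the axis.

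Members were unevenly spread over the last number of the feature names, a property the rule did not use. Each name ends in 1, 2, 3 or 4, and what this number stands for is not given in the sources used here. Of the members, 43 ended in 1, 39 in 2, 6 in 3 and 46 in 4. Names ending in 3 thus made up 4.48% of the members, against 25.6% of all features and 24.6% of those at 1 CPM or more in N0. Among the 523 features with an N0 share of 50 to under 90%, 58 ended in 3, or 11.1%. Among the 19 features nearly restricted to N0.5, 10 ended in 3 and 0 in 2. The 6 members ending in 3 included those ranked 11 and 16, with 362 and 210 CPM in N0. Members ending in 2 held the largest part of the N0 sum, 8362 CPM of it, of which the member ranked 1 contributed 4030.

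**Figure D5:**
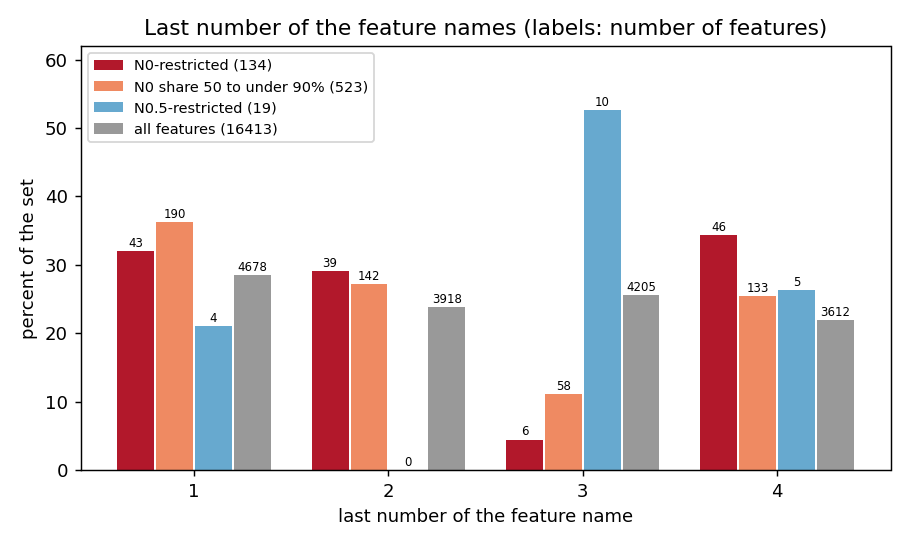
Percent of features whose name ends in 1, 2, 3 or 4 among the 134 members (red), the 523 features with an N0 share of 50 to under 90% (orange), the 19 features nearly restricted to N0.5 (blue) and all 16413 features (grey), with the number of features above each bar. Names ending in 3 make up 4.48% of the members and 25.6% of all features.

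Some features share a member's name up to the gene part without meeting the rule. The sources used here do not state whether the last number marks separate assemblies, so a member and such a feature need not belong to the same gene. The 134 members carried 133 such names, and 70 of them shared theirs with 94 features outside the rule, here called partners. No 2 features of the files shared both this part of the name and the last number. Over all 3009 pairs of features with the same gene part and means of at least 5 CPM, the median correlation of log2 levels over the 12 libraries was 0.11 and the median ratio of the longer to the shorter implied length was 1.56. Of 91 partners tested in N0 against N1.5, 20 rose, or 21.98%, against 26.6% of all tested features, and 39 fell, or 42.9%, against 31.2% of all tested features. With library totals 11 rose and 45 fell, and that scaling put the median of all tested log2 fold changes at -0.19, against -0.01 with TMM. Partners exclude features that meet the rule, which all tested features include, and this can lower their share of rises. Whether partners differ from other features was not tested.

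The partner with the largest fall was TRINITY_DN7952_c0_g1_i1_3, of 1830 bases. It had 3.30, 1.37 and 2.30 CPM in N0, against 3.97, 4.26 and 6.29 in N0.5, 56.0, 63.0 and 66.2 in N1, and 160, 116 and 197 in N1.5. N0 lay below all libraries of the other groups, with N0.5 near it and N1 between these and the control. Its log2 fold change in N0 against N1.5 was -5.90 (SE 0.27, edgeR adjusted p = 4.24e-10). The member with this name part, ranked 103 and of 991 bases, had 4.32 ± 0.56 CPM in N0 and 0.071 ± 0.0043 in N1.5 (SD, n = 3 each). The next was TRINITY_DN119_c0_g1_i1_3, of 1307 bases, with 7.31, 6.71 and 7.27 CPM in N0, against 120, 114 and 101 in N0.5, 67.9, 76.7 and 66.3 in N1, and 90.6, 95.5 and 94.3 in N1.5. It fell by 3.54 on the log2 scale in N0 against N1.5 (SE 0.093, edgeR adjusted p = 4.05e-12), with no N0 library near those of any other group. The member with its name part was the one ranked 8, which stood at 390 ± 16.5 CPM in N0 and 3.92 ± 2.64 CPM in N1.5.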

How the data were processed

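Estimated counts and FPKM values per feature were used as deposited by the authors for all 12 libraries. The tools named, per the submitters' processing notes, are DESeq, Bowtie2 2.4.5 and Trimmomatic 0.40, and what each did is not stated. The sources used here do not state how counts, assembly or annotation were made. Each count divided by FPKM and library total gave the implied length.

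CPM is the estimated count over its column sum, without further scaling. For the tests, rounded estimated counts were fitted in edgeR 4.0.16 (R 4.3.3) with TMM scaling, filterByExpr by group (15429 features kept) and 1 coefficient per group over all 12 libraries. Tests were two-sided, with Benjamini-Hochberg adjustment over all tested features and calls at an adjusted p under 0.05. The same fit was first tested on simulated data with known changes. A count of 0 allows up to 3 counts, which covers counting error only. Where p-values are given, they set a group difference against the spread between libraries within groups. That spread was pooled over all groups in the fit, N0 among them unless left out, and moderated across features.

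Members and lists were chosen with earlier results of these data known. Named features are the 2 members with the highest N0 mean CPM and the 2 partners with the largest called fall. Other members were chosen for description after their values were seen. Alternatives were other scalings, DESeq2 1.42.0, no filter, limma 3.58.1 on log2(FPKM + 0.1) and log2(FPKM + 1), a replicate block, other rule thresholds, and libraries left out, among them all N0 libraries, which was added after the data were seen.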

Additional observations from a re-analysis of the deposited data

How the results depend on the processing

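The number of members followed the thresholds: it was 255 with a share of 80%, 72 with 95%, 3 with 99%, and 81 when the lowest N0 library was set against the highest library of each other group. It was 134 with FPKM for the share, 143 after TMM scaling, 144 without the 4 libraries of broad residual, and between 128 and 138 with each library left out. Calls among members without a single library were between 27 and 43 in N0.5 against N1.5, 15 and 29 in N1 against N1.5, and 26 and 36 in N0.5 against N1, and calls among partners in N0 against N1.5 were between 52 and 61. In the same order, these fits called 55.8 to 61.8, 3.86 to 8.34, 54.5 to 60.4 and 52.1 to 57.5% of all features. With limma on log2(FPKM + 1), calls were 17, 16 and 16 in the same 3 comparisons of members, and with log2(FPKM + 0.1) they were 20 in N0.5 against N1. Of all features 63, 7.88 and 61.3% were called with log2(FPKM + 1), and 60.2% in N0.5 against N1 with log2(FPKM + 0.1). With N0 left out, chosen after seeing the data, the 3 counts of members were 16, 12 and 16, with 61 members tested. The scale of log2(FPKM + 1) understates changes of low features by construction. All other totals in the alternatives were within 1.5 times those reported, but their split by direction moved more: in N0.5 against N1 it was 4 higher and 16 lower with log2(FPKM + 0.1), and in N1 against N1.5 it was 12 and 8. Replicate numbers did not pair the libraries: the correlation of deviations from the group means was between -0.065 and 0.15 for libraries of the same number, and 4 of 12 libraries correlated best with their own number. With the replicate block the 3 counts of members were 30, 26 and 31 and that of partners 59. There 61.8, 7.67, 60.6 and 57.8% of all features were called. Depth limits the residual levels, since 44 to 82 members per library with nitrate had under 3 counts.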
